A study of Mus musculus with 2 samples.

Results

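The autophagy receptor and ATG8 genes were examined for binding of MAFK, a small MAF transcription factor, in ES-E14, a male embryonic stem cell line of mouse strain 129/Ola. The 10 genes were taken as a list. They are the receptors Sqstm1, Nbr1, Optn, Calcoco1 and Tax1bp1 and the ATG8 genes Map1lc3a, Map1lc3b, Gabarap, Gabarapl1 and Gabarapl2. A region belonged to a gene when its summit lay within 50 kb of any transcription start site (TSS) of that gene in GENCODE vM21. This gave 21 regions of the 16865 in the authors' optimal list, of which 16836 lie on assembled chromosomes, and these 21 fell to 8 of the 10 genes. Chromatin immunoprecipitation with sequencing was done in 1 condition, with an antibody against MAFK and 2 biological replicates. Both carry the same biosample in the labels, so their differences may be technical in part. No treatment, second genotype or second condition was part of the design. The lists hold regions and no expression values, so the cell type was not checked against markers, and whether the genes were transcribed was not measured.

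Selective autophagy delivers chosen cargo to the lysosome. Receptors such as p62, the product of Sqstm1, bind ubiquitin or another mark on the cargo and, through a short motif, the lipid-anchored ATG8 proteins (LC3 and GABARAP families) on the forming autophagosome. Small MAF proteins have no activation domain of their own and bind DNA as homodimers or as partners of CNC factors such as NRF2 and BACH1 at antioxidant response elements. p62 also binds KEAP1, the inhibitor of NRF2, and Sqstm1 is a known NRF2 target gene.

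The sequences under the regions come first, because they show which form of the element, if any, each region holds. The antioxidant response element core was searched as TGACNNNGC or TGAGNNNGC, the NFE2-type composite element as TGACTCAGCA or TGAGTCAGCA, and the MAF core as TGCTGA, on either strand, up to 50 bp from the summit. Every composite element contains an antioxidant response element core and, read on the other strand, a MAF core. The composite element was at 6 of the 21 regions. The 30 bases around each are shown 5' to 3' on the strand of the element (GRCm38, composite element in capitals).
Sqstm1, 237 bp upstream (chr11:50211064-50211093, plus strand): ggcctgcctaTGACTCAGCAgtgtcgtccc
Sqstm1, 2104 bp upstream (chr11:50212923-50212952, plus strand): tggccaagcgTGACTCAGCAgtctagtggc
Sqstm1, 16702 bp downstream (chr11:50186231-50186260, minus strand): ccttggatgaTGAGTCAGCAaagctaagag
Optn, 19910 bp upstream (chr2:5083947-5083976, plus strand): aggagaggccTGACTCAGCAaaatccactt
Map1lc3b, 21768 bp upstream (chr8:121568599-121568628, minus strand): gatagactgcTGACTCAGCAcatctgaagt
Gabarapl1, 194 bp downstream (chr6:129533735-129533764, plus strand): gcgtggtgggTGAGTCAGCAggattcagca
All 3 regions of Sqstm1 carried it. The Map1lc3b sequence is the full palindromic T-MARE, with 0 mismatches. MAF homodimers can bind this palindrome, but it also contains the composite element, and which dimer was bound was not measured.

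The Gabarapl2 regions and the strongest Calcoco1 region held the core without the composite element (core in capitals). They are shown because Gabarapl2 had both the most regions and the highest signal.
Gabarapl2, 47892 bp upstream (chr8:111892803-111892832, minus strand): ctcgtctttgcTGACTGGGCattcctgtgt
Gabarapl2, 15613 bp upstream (chr8:111925071-111925100, minus strand): atcaggaatgcTGACTATGCagtattgtct
Gabarapl2, 8784 bp upstream (chr8:111931888-111931917, minus strand): acatgaaaggcTGACTAAGCaaaatgcgca
Gabarapl2, 740 bp upstream (chr8:111939966-111939995, plus strand): acttcctggaTGACTATGCtacgacttgga
Gabarapl2, 19730 bp downstream (chr8:111960776-111960805, minus strand): tgggaggatgcTGACTGTGCatctgagtca
Calcoco1, 16086 bp downstream (chr15:102693786-102693815, minus strand): taaggatgagcTGACTTGGCaggtttaatt
Of the 5 Gabarapl2 regions, 4 had a match to the T-MARE palindrome with 2 mismatches within 50 bp of the summit, and the weak region at 740 bp had its best match with 4. A match with 2 or fewer mismatches was at 42.9% of the 21 regions and at 39.2% of all optimal regions.

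At Nbr1, Tax1bp1 and the strongest Optn region the MAF core was the only 1 of these elements (MAF core in capitals).
Nbr1, 96 bp upstream (chr11:101552000-101552029, plus strand): ggggggggggggTGCTGAaactgtttctgg
Tax1bp1, 3382 bp downstream (chr6:52744248-52744277, minus strand): tcgttcactttcTGCTGActccccattttc
Optn, 16254 bp upstream (chr2:5080306-5080335, minus strand): tttccttaaaaaTGCTGAcctttctttcat
The Nbr1 MAF core lay 38 bp from the summit, behind a run of G, and the summit was in repeat-masked sequence. Those of Tax1bp1 and Optn lay 4 and 16 bp from it.

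The share of regions with each element was close to that of the whole list. The composite element was at 28.6% of the 21 regions and 28.2% of all optimal regions, the antioxidant response element core at 61.9% (13 regions) and 60.3%, and the MAF core at 66.7% (14 regions) and 62.8%. The AP-1 element TGACTCA or TGAGTCA, which the composite element contains, was at 33.3% and 37.8%. In windows of the same width 1000 bp to either side of all summits, the composite element was at 0.0891%, the antioxidant response core at 7.15% and the MAF core at 7.29%, while the 42 such windows around the 21 regions held 0, 4 and 1. At least 1 of the 3 was present at 18 of the 21 regions, and the centre of the longest element present (composite, otherwise antioxidant response core, otherwise MAF core) lay 0 to 38 bp from the summit, within 20 bp in 16 of the 18. The E-box CACGTG, the core of the sites of the autophagy regulator TFEB, was at 0 of the 21 summits and 1.44% of all, and the CREB-type element TGACGTCA at 0 and 0.279%.

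**Figure D1:**
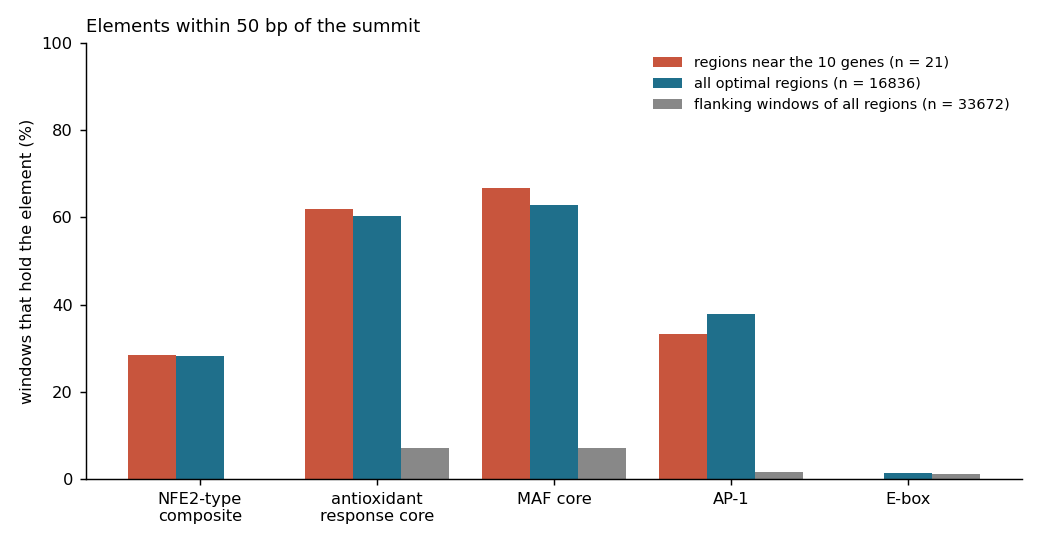
Share of windows (%) with each sequence element within 50 bp of the centre, for the 21 regions near the 10 genes, all 16836 optimal regions and the 33672 flanking windows. The shares of the 21 regions stand beside those of the whole list, at 28.6% against 28.2% for the composite element and 61.9% against 60.3% for the antioxidant response element core, and the flanking windows are far lower for these elements.

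Binding near these genes was uneven. An optimal summit lay within 50 kb at 8 of the 10 genes, where 59.3% of the 21938 protein-coding genes had 1. Within 10 kb there were 5 of 10, where the background was 26.9%, and within 1 kb 4 of 10 (Sqstm1, Nbr1, Gabarapl1 and Gabarapl2), where it was 8.66%. With only the starts of protein-coding transcripts, 4 of 10 had a summit within 10 kb, where the background was 23.1%. The Gabarapl2 region within 1 kb was weak (signal 8.77). It was in neither of the authors' conservative lists and in neither replicate's thresholded list. The counts rest on 10 genes chosen with earlier results of these data known, and no test was made of them. The genes have a median of 5 TSSs each and protein-coding genes a median of 3, which widens the search for the first. The signal value of a region is the authors' own score on a scale that is not stated, and it is used here to describe and rank regions within a list. Its median over the 21 regions was 33.6, with a range of 3.96 to 240.0, and over all optimal regions 27.8. The 13 receptor regions had a median of 25.3 and the 8 ATG8 regions of 97.1, with both ranges overlapping. The 13 include Calcoco1 regions with signals of 4.72 and 3.96, and the first of these shares bases with a further Calcoco1 region. The ATG8 regions lay at 3 genes only, and 5 of the 8 were those of Gabarapl2.

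**Figure D2:**
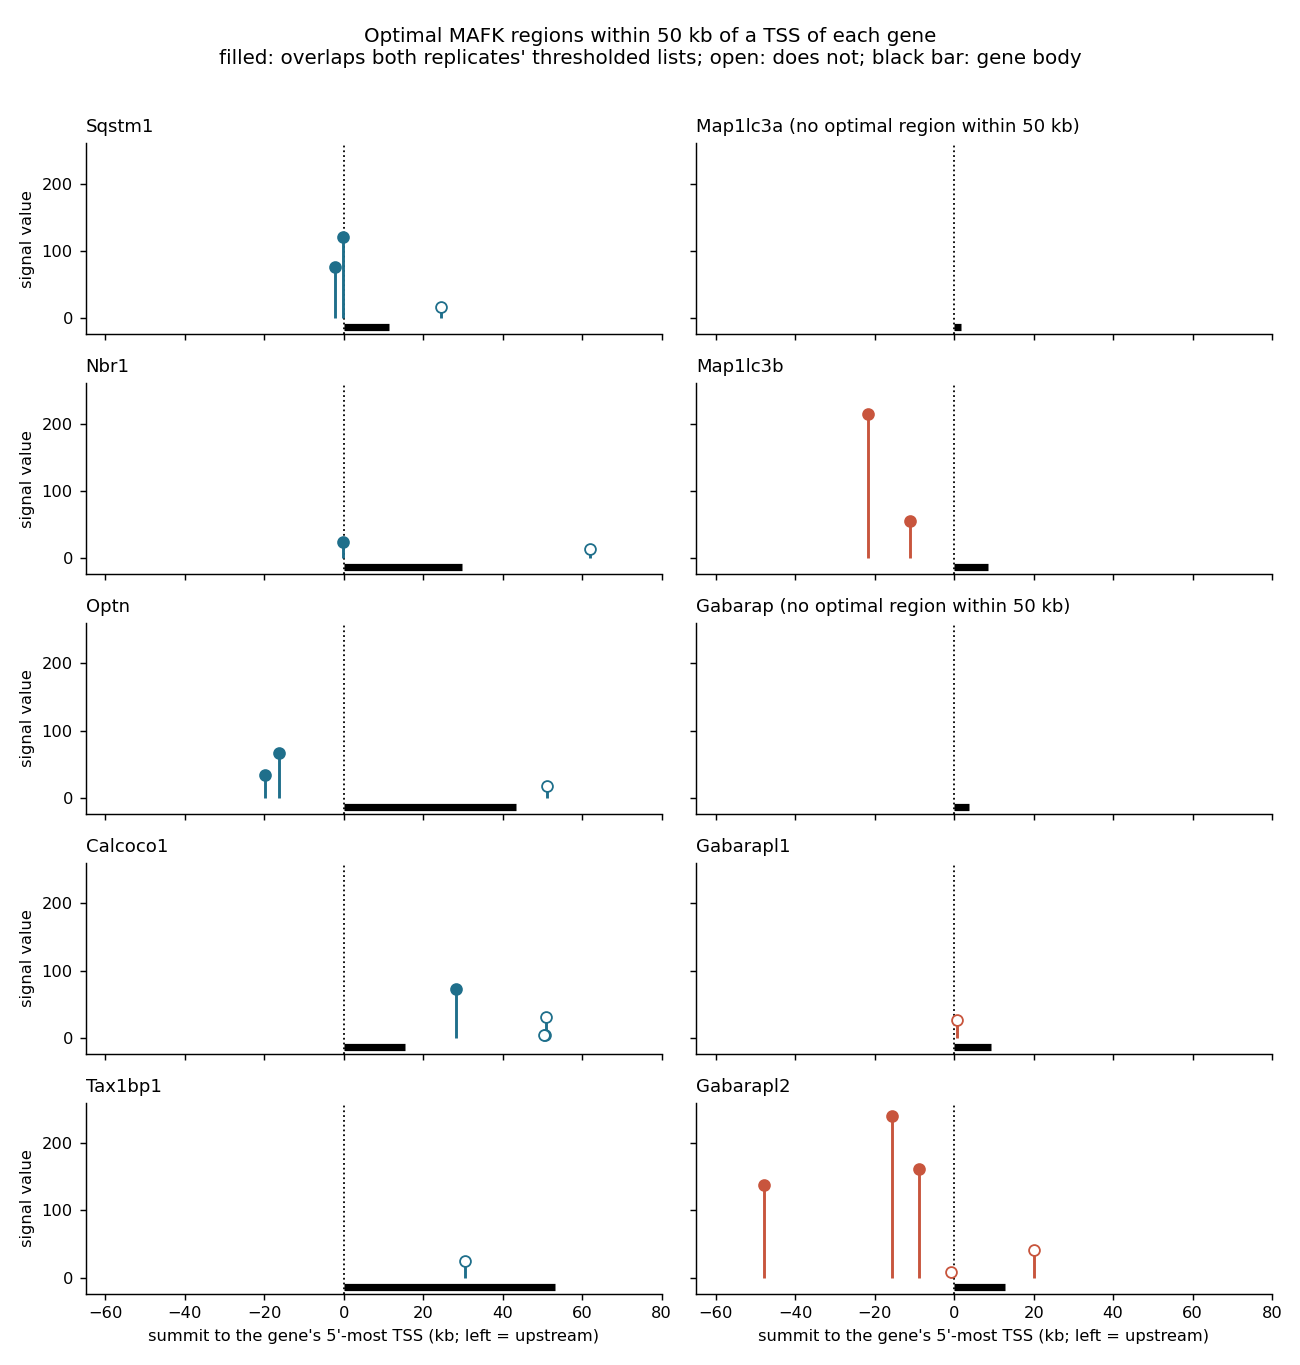
Signal value of each optimal region (y axis) against the distance of its summit from the 5'-most TSS of the gene in kb (x axis, upstream to the left), receptors in the left column and ATG8 genes in the right. Filled points overlap the thresholded lists of both replicates and open points do not. The highest are at Gabarapl2 (240.0) and Map1lc3b (214.6), and the panels of Map1lc3a and Gabarap are empty.

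Sqstm1 (chr11:50199366-50210827, minus strand, ENSMUSG00000015837.15) had the strongest region within 1 kb of its own TSS among the 10 genes. Its first region, chr11:50210974-50211172, had a signal of 121.3, and rank 1037 in the optimal list. In the relaxed lists, which hold weak regions and background too and were made for each replicate, it had 51.8 in replicate 1 and 67.7 in replicate 2. The summit was 237 bp upstream of the Sqstm1 TSS and 174 bp from a TSS of Mgat4b, a glycosyltransferase gene, in an intron of which it lies, and Mgat4b was the nearest protein-coding gene to it and to the second region. The second, chr11:50212783-50213078, was 2104 bp upstream and had 76.6 in the pooled list, 30.5 in replicate 1 and 45.0 in replicate 2. Both overlapped the thresholded lists of both replicates. The third, chr11:50186104-50186399, in an intron of Mrnip, was weaker, with 16.5 pooled and 8.78 and 6.06 in the replicates, and overlapped neither thresholded list.

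Nbr1 (chr11:101552149-101581951, plus strand), which encodes a receptor related to p62, had a region at its promoter. It is chr11:101551905-101552200, with the summit 96 bp upstream of a TSS. Its signal was 24.4, below the median of all optimal regions, with 14.6 in replicate 1 and 9.15 in replicate 2, and it overlapped both thresholded lists. Nbr1 has 19 annotated TSSs, the most of the 10 genes, and a second region 36374 bp beyond one of them (signal 13.9) was nearest to Rdm1. That region stood at rank 14104 in the relaxed list of replicate 2 and at rank 194585 in that of replicate 1 (signal 2.36), and overlapped neither thresholded list.

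Optn (chr2:5020642-5064051, minus strand) encodes optineurin, a receptor for damaged mitochondria and bacteria. It had 2 intergenic regions upstream and none within 10 kb. The stronger, chr2:5080295-5080371, lay 16254 bp upstream, with 67.2 pooled, 38.8 in replicate 1 and 31.3 in replicate 2. The other, chr2:5083813-5084108, lay 19910 bp upstream, with 33.6 pooled and 19.6 and 12.1 in the replicates. Optn was the nearest protein-coding gene to both, and both overlapped the 2 thresholded lists. The weaker of these held the composite element and the stronger only the MAF core. A further region (signal 18.0) lay beyond the 3' end, 121 bp from a TSS of the replication gene Mcm10. It had 17.6 in replicate 2 and 2.34 in replicate 1, where its rank was 199041, and it overlapped the thresholded list of replicate 2 alone.

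Calcoco1 (chr15:102706777-102722178, minus strand), a receptor gene for autophagy of the endoplasmic reticulum, had a single strong region beyond its 3' end. This was chr15:102693762-102693838, 16086 bp from the nearest TSS, with 72.0 pooled, 27.3 in replicate 1 and 41.4 in replicate 2. It overlapped both thresholded lists, and Calcoco1 was the nearest protein-coding gene. The other 3 regions lay 38065 to 38637 bp away, all at the promoter of Atp5g2, a gene of the ATP synthase c subunit. Their signals were 30.7, 4.72 and 3.96, with deposited −log10 q-values of 2.66, 0.386 and 0.230. The first of these shared bases with the second, and both met the same region in each replicate's relaxed list (11.2 and 19.1), so they are not separate measurements.

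Tax1bp1 (chr6:52713729-52766780, plus strand), which encodes a receptor for ubiquitinated aggregates, had 1 region, in a coding exon of the gene itself. It is chr6:52744111-52744406, 3382 bp from an internal TSS. The signal was 25.3 pooled, 6.72 in replicate 1 and 17.8 in replicate 2. It overlapped neither replicate's thresholded list, and replicate 2 was the higher. The transcript that starts at this TSS is annotated as processed, without a coding sequence.

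Gabarapl2 (chr8:111940703-111953612, plus strand), which encodes the ATG8 protein also called GATE-16, had 5 regions, the most of the 10 genes. Of all protein-coding genes, 3.85% had 5 or more within 50 kb. Upstream of the gene, 3 of them were among the strongest of the optimal list. The region chr8:111924962-111925216, at 15613 bp, had 240.0 pooled (rank 217), 143.2 in replicate 1 and 96.3 in replicate 2. The region chr8:111931815-111932029, at 8784 bp, had 161.8 (rank 575), 93.2 and 68.1. The region chr8:111892715-111892924, at 47892 bp, had 138.5 (rank 803), 65.5 and 71.5. All 3 overlapped both thresholded lists. The first 2 lie in introns of Tmem231, a gene of the cilium base, whose TSSs are nearer (3070 and 1880 bp), and the last lies in an intron of the sulfotransferase gene Chst5. The promoter region itself, chr8:111939815-111940110, was weak, with 8.77 pooled and 11.2 in replicate 2, and overlapped no region of the relaxed list of replicate 1. That list did hold 2 regions within 1 kb of a Gabarapl2 TSS, the stronger with 9.41 at 377 bp. In the pooled relaxed list the highest signal within 1 kb was likewise at 376 bp and not at 740 bp. Replicate 1 thus had weak signal near this promoter, at another position. A downstream intergenic region, chr8:111960650-111960945, had 40.9, with 13.8 and 25.7 in the replicates.

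Map1lc3b (chr8:121590361-121598760, plus strand), the gene of LC3B, had 2 regions upstream, both in both thresholded lists. The stronger, chr8:121568444-121568737, lay 21768 bp upstream, with 214.6 pooled (rank 304), 125.8 in replicate 1 and 91.0 in replicate 2. It is intronic in Fbxo31, a ubiquitin ligase gene whose TSS is 8630 bp away. The other, chr8:121579092-121579387, lay 11121 bp upstream and 434 bp from the Fbxo31 TSS, with 55.6, 32.8 and 22.2. It held none of the searched elements within 50 bp of its summit.

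Gabarapl1 (chr6:129533160-129542346, plus strand) had 1 region, chr6:129533597-129533892, in the first part of the gene, with the summit 194 bp downstream of a protein-coding TSS. The signal was 26.7 pooled, 16.9 in replicate 1 and 10.8 in replicate 2. It overlapped the thresholded list of replicate 1 and not that of replicate 2, and it was 1 of 2 regions within 1 kb of a member's TSS with the composite element, the other being that of Sqstm1.

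Map1lc3a (chr2:155276297-155278073) and Gabarap (chr11:69991143-69994951) had no optimal summit within 50 kb. The nearest were 125236 bp from Map1lc3a (signal 48.3) and 68223 bp from Gabarap (signal 20.6), upstream of Eif5a. In the relaxed lists the highest signal within 50 kb of Map1lc3a was 7.85 pooled, 4.72 in replicate 1 and 6.47 in replicate 2, and of Gabarap 11.2, 6.55 and 6.99. The other ATG8 and receptor genes had at least 24.4 in the pooled relaxed list. The threshold of 50 kb fell in a gap, with the farthest region inside it at 47892 bp from Gabarapl2 (138.5) and the next outside at 67885 bp from Gabarapl1 (20.7).

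The strongest region of each gene was set among the 13003 protein-coding genes with a summit within 50 kb, whose strongest regions had a median signal of 40.8. Gabarapl2 (240.0) stood at or above 97.4% of them, Map1lc3b (214.6) 96.1%, Sqstm1 (121.3) 87.2%, Calcoco1 (72.0) 73.0% and Optn (67.2) 70.9%. Gabarapl1 (26.7), Tax1bp1 (25.3) and Nbr1 (24.4) stood at 29.6%, 26.7% and 24.6%. Calcoco1 and Optn changed places between the replicates (27.3 and 41.4 against 38.8 and 31.3), so these neighbours in the order do not differ beyond their spread. The order of the lowest 3 is as unsettled, since Tax1bp1 (6.72 and 17.8) was below Gabarapl1 (16.9 and 10.8) and Nbr1 (14.6 and 9.15) in replicate 1 and above both in replicate 2. Gabarapl2 was above Map1lc3b in both replicates (143.2 and 125.8, 96.3 and 91.0), and with 2 replicates on scales of their own no interval can be given for that step.

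**Figure D3:**
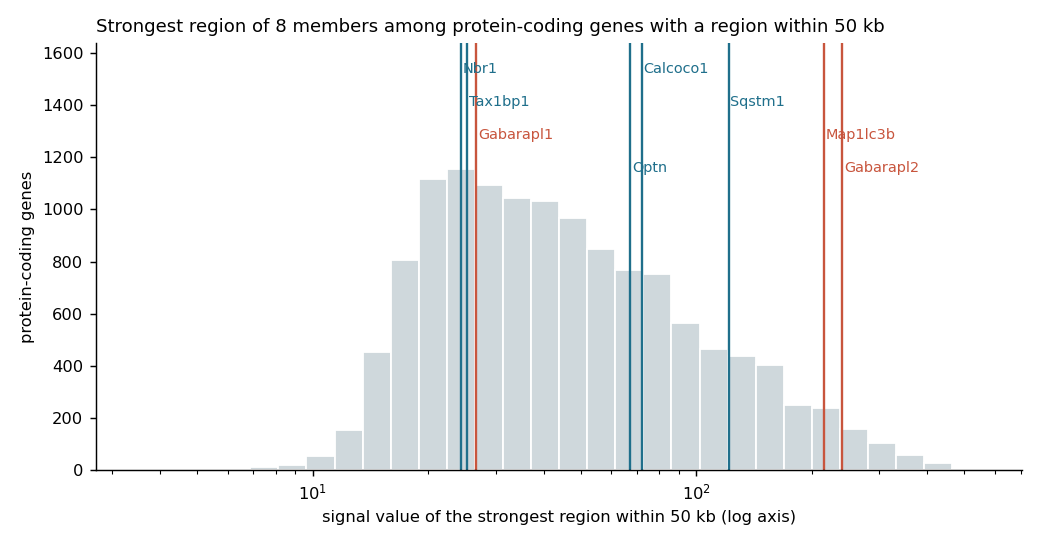
Number of protein-coding genes (y axis) by the signal value of their strongest optimal region within 50 kb (x axis, log scale), with a line for each of the 8 genes that have 1 (receptors blue, ATG8 genes red). Gabarapl2 and Map1lc3b stand in the upper tail, and Nbr1, Tax1bp1 and Gabarapl1 lie below the median of 40.8.

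The regions were then looked up in each replicate. Of the 21 regions, 20 overlapped a region of the relaxed list of replicate 1 and 21 one of replicate 2. Over those 20, Spearman's rho of the signal was 0.83, and it was 0.84 over 19 with the overlapping Calcoco1 pair counted once. The optimal list was itself derived from the relaxed lists of these replicates and of both pooled. This value therefore describes the regions and is no independent measure of how well the replicates match. Not every region had like ranks in both. The Optn region near Mcm10 stood at rank 199041 in replicate 1 and 6756 in replicate 2. The signal of the 19 was higher in replicate 1 at 10 and in replicate 2 at 9, but the lists were made separately and their scales need not be equal. In the thresholded lists, 11 regions overlapped both, 1 that of replicate 1 only, 4 that of replicate 2 only and 5 neither. The share with both was 52.4% of the 21 and 35.4% of all optimal regions, and 38.1% of all optimal regions overlapped neither. The conservative list of the first run, with 16082 regions beside 16865 in the optimal list, held 16 of the 21. The share of all optimal regions that it held is not given here, so this count cannot be called high or low. The 11 regions shared by both had a median signal of 76.6 and the other 10 of 17.3, where the medians over all optimal regions were 62.2 and 21.4. A signal over 100 was found at 5 of the 21 regions (23.8%) and at 8.53% of all. These 5 overlapped both lists and held the antioxidant response element core, as did 99.9% and 83.4% of all optimal regions of that strength, respectively.

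**Figure D4:**
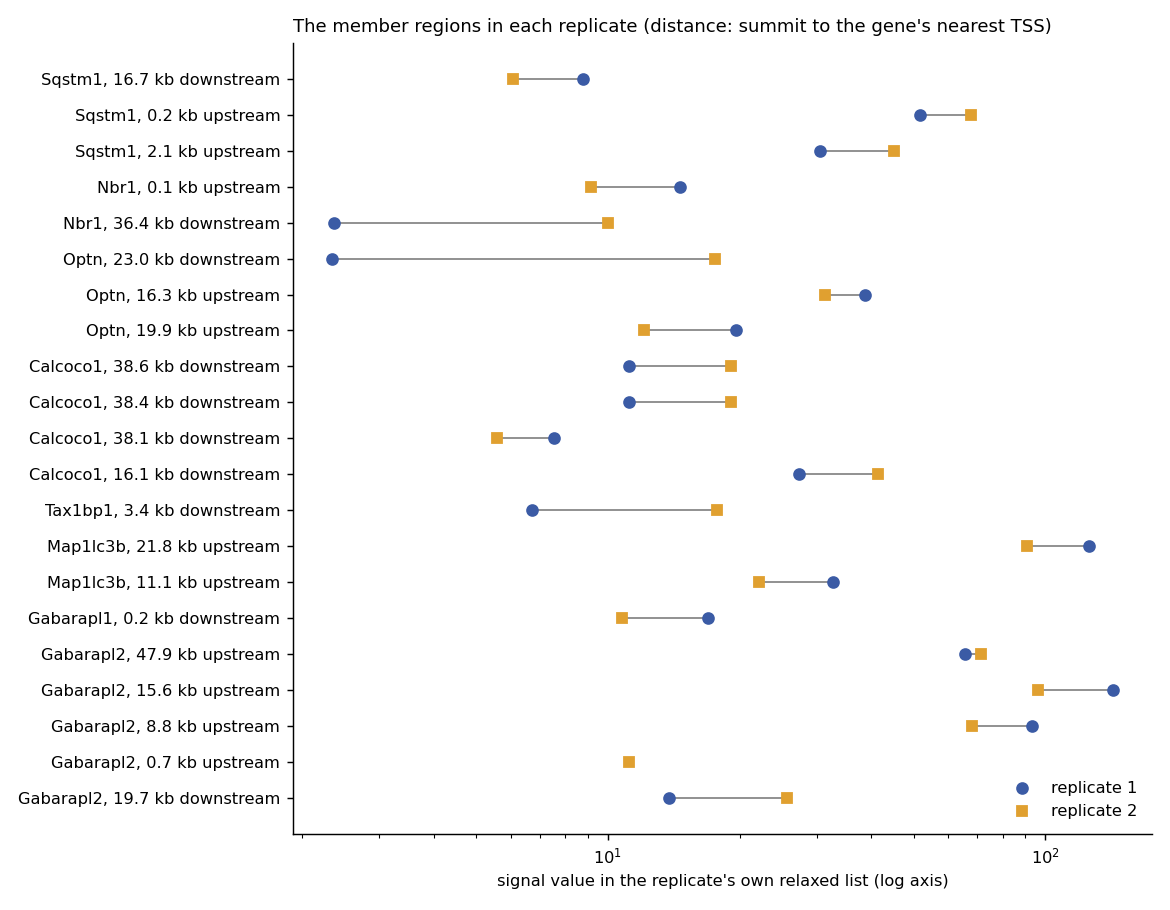
Signal value of each of the 21 regions in the relaxed list of replicate 1 (circles) and replicate 2 (squares), on a log axis, with each row named by the gene and the distance of the summit from its nearest TSS. The pair at Optn near Mcm10 is widest apart (2.34 and 17.6), the weak promoter region of Gabarapl2 has no point for replicate 1, and a pair of Calcoco1 rows shows the same replicate regions.

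Most of the regions were nearer to another gene. The nearest protein-coding TSS belonged to the gene of the list at 8 of the 21 regions and to a neighbour at 13, among them Mgat4b, Fbxo31, Tmem231 and Atp5g2. By location, 11 summits were intronic, 7 intergenic, 1 in a coding exon, 1 in a UTR and 1 in a noncoding exon. Within 1 kb of any TSS lay 9 regions, 42.9% of the 21, where the share over all optimal regions was 15.3%. Their median signal was 24.4 and that of the 12 farther away 69.6, where the medians over all optimal regions were 25.4 and 28.3. The composite element was at 2 of the 9 and 4 of the 12, with shares over all optimal regions of 17.2% and 30.2%. The antioxidant response core was at 4 and 9, with shares over all of 48.3% and 62.4%. Closeness to a TSS was part of how regions were chosen, and a region near a gene does not show that it acts on that gene.

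Most other genes of the pathway also had a region within 50 kb. Of 57 genes in 5 lists, 47 had an optimal summit within 50 kb and 28 within 10 kb, where the backgrounds were 59.3% and 26.9%, and genes that are neighbours share regions. Among 16 other selective receptors, 13 had a summit within 50 kb, led by the mitophagy receptor gene Bnip3 (signal 125.6, at 41476 bp), the ferritin receptor gene Ncoa4 (100.1, at 1239 bp, with the composite element), Phb2 (75.0) and Fkbp8 (61.0). Of 7 genes of the initiation complex and ATG9, 6 had 1. Ulk1, the initiating kinase gene, led with 145.5 at 1800 bp and no antioxidant response core, before Atg9a (43.7), Rb1cc1 (37.3, at 23 bp) and Atg101 (27.3).

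In the list of the class III PI3 kinase and the phagophore, 13 of 15 genes had a summit within 50 kb but only 4 within 10 kb. The highest signals were at Wdr45 (231.5, at 38935 bp), Atg14 (119.1), Atg2a (108.7) and Atg2b (80.6, at 1132 bp). Of 11 genes in the list of ATG8 conjugation, 9 had 1, with Atg4d (150.7, at 26434 bp), Atg7 (77.9), Atg10 (65.9) and Atg3 (43.8) the highest. Among 8 regulators there were 6, led by Tfe3 (231.5, at 1350 bp), Foxo3 (226.5, at 32059 bp), Keap1 (150.7, at 46 bp) and Rptor (106.5). Wdr45 and Tfe3 share 1 region, chrX:7765862-7766112, as do Atg4d and Keap1, chr9:21238739-21238955. Tfeb, Mtor, Calcoco2, Rtn3, Tollip, Atg9b, Pik3c3, Wipi2, Atg16l1 and Atg4c had none within 50 kb.

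**Figure D5:**
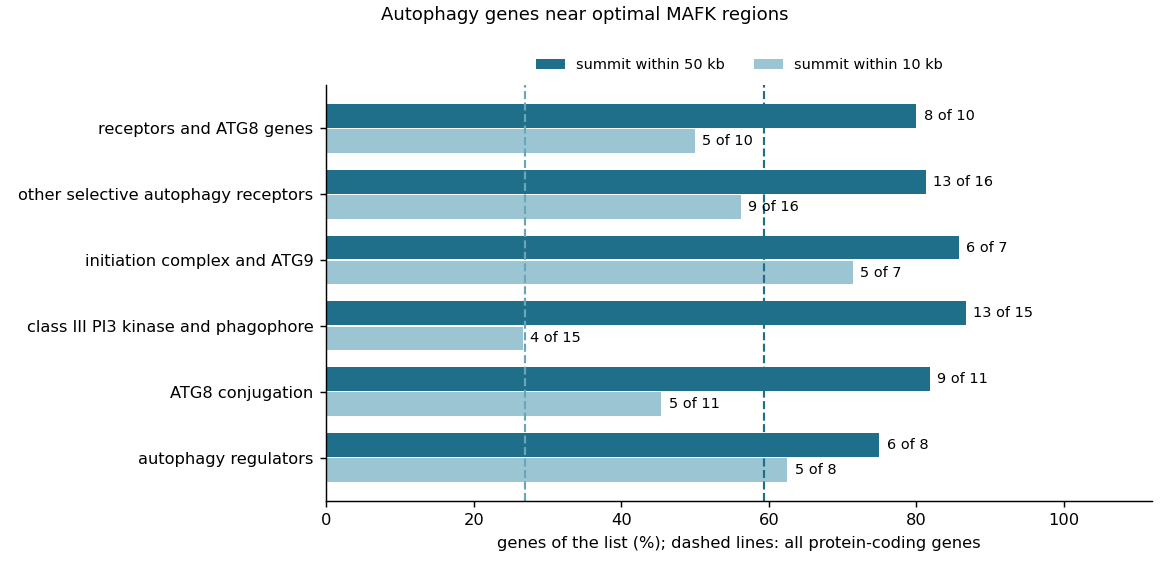
Share of the genes of each list (%) with an optimal summit within 50 kb (dark bars) and 10 kb (light bars), with the counts beside the bars and dashed lines at the shares of all protein-coding genes (59.3% and 26.9%). All 6 lists stand above the 50 kb line, and 4 of 15 genes of the class III PI3 kinase list lie just below the 10 kb line.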

How the data were processed

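The regions were deposited on mm10, per the labels and the text notes deposited with the samples. Those notes describe 2 processing runs. The optimal list and the relaxed lists are from the first, and the replicates' thresholded lists from the second, so a comparison between them crosses the runs. The optimal list was derived from relaxed lists of each replicate and of both pooled, with the irreproducible discovery rate. Which aligner and region caller made them, and the depth, was not given in the sources used here. The deposited signal value has no stated scale. The deposited −log10 q-value and the deposited score of the thresholded lists (lowest 537 in the optimal list) were read and not used for any call.

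Sequences came from GRCm38, the assembly of mm10, and TSSs from all GENCODE vM21 transcripts. Summits are the region start plus the deposited offset, and coordinates are 1-based. Overlap means at least 1 bp. Replicates were compared through the strongest overlapping region of their lists. No set test was made. The element and distance searches were tested on simulated data. Python 3.11.15, numpy 2.4.6 and pandas 2.3.3 were used. The genes and lists were chosen with earlier results of these data known. All 10 genes are named, and 4 genes of highest signal of each other list. The genes listed without a summit and the sequences shown beyond those of each gene's strongest and nearest region with an antioxidant response core were chosen after their values were seen. The control experiment was not analysed here.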

Additional observations from a re-analysis of the deposited data

How the results depend on the processing

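With 1 replicate's own list in place of the optimal list, the genes with a summit within 50 kb were 7 in each, those within 10 kb 3 to 4, the regions 12 to 16, their median signal 27.5 to 36.0 and those with the antioxidant response core 9 to 11. These medians are on each replicate's own scale and cannot be compared with the 33.6 of the optimal list. The 7 genes within 50 kb compare with a background of 44.7% in replicate 2 and 37.6% in replicate 1. The 3 genes of replicate 2 within 10 kb compare with a background of 17.4% and the 4 of replicate 1 with 13.7%. In the strongest 50% of regions, 5 genes had a summit within 50 kb (background 40.3%) and 2 within 10 kb (15.1%), with 12 regions and a median signal of 74.3. Within 10 kb there were 7 regions with a median signal of 26.7, of which 5 held the core and 4 overlapped both replicates' lists, and within 100 kb 34 regions, 22 with the core. In the conservative list the median signal was 48.3. With each region given only to its nearest protein-coding TSS, an alternative chosen after seeing the data, 8 regions at 6 genes (background 32.9%) were left, 5 with the core and 4 in both replicates' lists, and Sqstm1 and Map1lc3b had none. These settings use other or fewer regions by construction. The remaining 46 of 63 alternatives moved a count by at most 1.5 times or the median by less than 6.07, the SD between the replicates' lists. That SD is between 2 medians on scales of their own, so it is a rough yardstick. The 46 include the median of replicate 1, for which the comparison crosses scales. The strongest signal of each gene moved by less than 1.5 times in all 23 comparisons with the other pooled lists. Those lists come from the same 2 replicates, and the conservative list of the first run gave equal values for every gene with a region. These comparisons are therefore no independent check. Tax1bp1 had no region in the thresholded list of the second run. The depth is unknown, so a gene without a region is one where none was called.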

Other observations

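Some weak regions near these genes were called in only some of the deposited lists. Gabarap had 1 region within 50 kb in the thresholded list of the second run, chr11:69961893-69962188, at 29102 bp with a signal of 11.2, and none in the optimal or either conservative list. A region 3614 bp from a Gabarapl2 TSS, chr8:111944534-111944829, was in the conservative lists of both runs (19.0 and 20.8) and the thresholded list of the second run, but not in the optimal list. At Nbr1, 3 further regions with signals of 12.2, 11.5 and 4.27 were in the thresholded list of the second run. The last 2 of them were within 1 kb of an Nbr1 TSS and share bases, so they are not separate measurements. Near Optn, a pair of regions that share bases (9.68 and 7.05) was in the conservative list of the first run and not in the optimal list, and near Tax1bp1 the thresholded list of replicate 2 held a region at 44932 bp (9.29) in place of the exonic one.

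RefSeq promoter windows (GRCm38.p6, from 250 bases before to 50 after a start) were listed for 9 of the 10 genes, in 11 windows. The antioxidant response element core was in 3 of the 11, at Gabarapl2, Map1lc3b and Tax1bp1, and in 27.8% of all 32851 windows. The composite element was in 0 of the 11 and 0.289% of all, and the E-box CACGTG in 0 and 7.15%. The elements of the Sqstm1 and Gabarapl1 regions lie outside these windows.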
